A study of Mus musculus with 4 samples.

Results

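C1q-high macrophages of mouse skin wounds were chosen by their raw counts of the complement C1q transcripts. A cell belonged to them when its unique molecular identifiers (UMIs, counted transcript molecules) for C1qa, C1qb and C1qc summed to at least 10 and it held no UMI of Hdc, the histidine decarboxylase gene of basophils, mast cells and neutrophils, and none of the T cell gene Cd3e. They numbered 1097 of the 19827 cells that passed the filters of at least 200 detected genes and at most 10% mitochondrial UMIs. Single-cell RNA sequencing had been run on live CD45+ leukocytes sorted from 3 mm excisional wounds of 8-week-old male mice, with 1 library for each of 4 conditions. The 2 genotypes were Angptl4+/+ (wild-type) and Angptl4-/- (a germline knockout, so that every cell of the mouse lacked the gene). The strain label of all 4 samples, knockout included, reads C57BL6/J. Wounds were taken 1 and 5 days after wounding. The numbers of mice and wounds behind a library are not given in the sources used here, and the knockout and control animals came from different suppliers, so that genotype and colony cannot be told apart. With 1 library per condition no test between conditions was run. All intervals below are 95% intervals that cover counting error only, treat each cell or UMI as independent, and leave out variation between mice.

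C1q is the recognition molecule of the classical complement pathway, assembled from A, B and C chains, and tissue macrophages are a main source of it. It binds immune complexes and dying cells and helps macrophages clear them without inflammation. In skin, long-lived resident macrophages that express Folr2, Cbr2, Cd163 and Lyve1 stand beside macrophages that arise from Ccr2+ Ly6c2+ blood monocytes entering a wound. The 3 C1q genes lie side by side on the reverse strand of mouse chromosome 4, at chr4:136880129-136886187 for C1qb, chr4:136889804-136893065 for C1qc and chr4:136895917-136898803 for C1qa (GRCm38).

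Values are given for the Angptl4+/+ library first and the Angptl4-/- library second at each day. The libraries held 5346 and 4798 passing cells at day 1 and 4945 and 4738 at day 5, with 32962595, 27472052, 29746688 and 26981596 UMIs over all deposited barcodes. C1q-high macrophages numbered 98 and 88 at day 1 and 669 and 242 at day 5, with 1031257, 844732, 6400275 and 3284190 UMIs. Their median UMIs per cell were 10113 and 8862 at day 1 and 9274 and 12984.5 at day 5, so the Angptl4-/- day 5 cells were the most deeply sequenced and the Angptl4-/- day 1 cells the least. Angptl4 itself checked the genotype labels. The macrophages held 5 Angptl4 UMIs in the Angptl4+/+ library at day 1 and 35 at day 5, and 0 in both Angptl4-/- libraries. Pairs of libraries shared 5 to 15 cell barcodes, and no barcode of a C1q-high macrophage was shared.

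The C1q counts that chose the cells are a description and not a finding. In the whole libraries 94.7% and 94.6% of cells at day 1 and 74.4% and 89.4% at day 5 held no C1q UMI. The chosen cells held a median of 32.5 and 31 C1q UMIs at day 1 and 45 and 64 at day 5, with a maximum of 411 in 1 cell of the Angptl4-/- day 5 library. Those with 100 or more C1q UMIs made up 14.3% and 15.9% of the macrophages at day 1 and 22.1% and 36% at day 5. The C1qb transcript gave the largest part of the sum in each library, 42.1% to 47.2%, C1qa 31.1% to 37.6% and C1qc 18.1% to 21.6%. Some C1q was also counted outside macrophages. Neutrophils, gated on Cxcr2 and S100a8 plus S100a9, held 0.0813 and 0.155 C1q UMIs per cell at day 1 and 0.750 and 0.330 at day 5, against 49.1 and 51.1 and then 65.8 and 88.5 in the C1q-high macrophages. Across the threshold, 74 cells with 10 to 12 C1q UMIs were taken in and 92 with 7 to 9 were not. Adgre1 in the cells just inside was 164 and 99.6 counts per 1000000 UMIs (CPM) at day 1 and 220.2 and 161 at day 5, and just outside 205 and 226 and then 252 and 182.

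**Figure D1:**
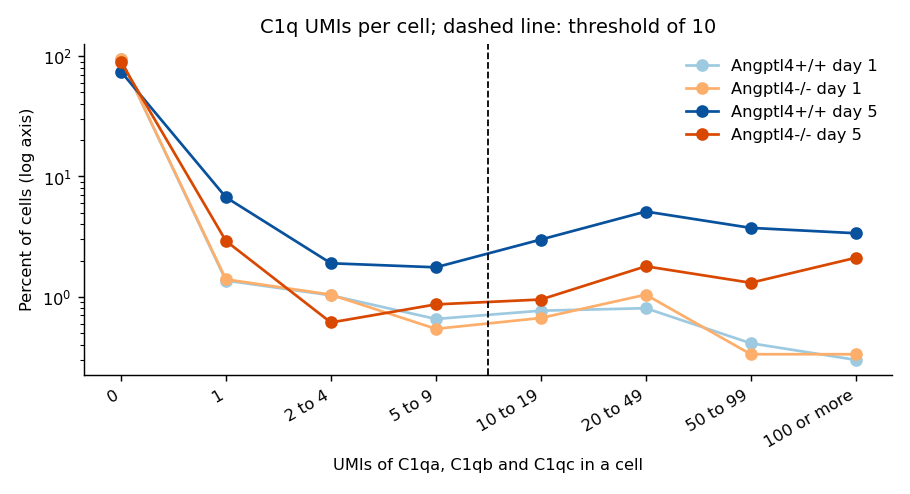
Percent of passing cells (log axis) in each bin of summed C1qa, C1qb and C1qc UMIs per cell, 1 line per library, with the threshold of 10 UMIs dashed. Most cells of each library sit at 0 UMIs, and above the threshold the Angptl4+/+ day 5 library has the highest share of cells.

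The resident label was borne out only in part. Folr2, a folate receptor of tissue-resident macrophages (chr7:101839988-101857194), was detected in 48% and 45.5% of cells at day 1 and 52.5% and 47.5% at day 5. In neutrophils, which should lack it, the shares were 0.399% and 0.331% at day 1 and 0.971% and 0.539% at day 5, at median depths of 4999 and 5007.5 and then 3362.5 and 3536 UMIs per cell. Cbr2, a carbonyl reductase of resident macrophages (chr11:120729489-120732114), was detected in 42.9% and 36.4% of cells at day 1 and 41.7% and 36.8% at day 5, and Pf4, a platelet-factor chemokine that resident macrophages also make (chr5:90772435-90773383), in 84.7% and 70.5% of cells at day 1 and 62% and 66.5% at day 5. The neutrophil shares were 0.215% and 0.364% at day 1 and 0.971% and 0.395% at day 5 for Cbr2 and 5.21% and 2.55% at day 1 and 4.37% and 1.98% at day 5 for Pf4. Folr2 or Cbr2 was present in 59.2% and 53.4% of the macrophages at day 1 and 61.4% and 53.7% at day 5, against 0.460% and 0.563% and then 1.6% and 0.683% of the neutrophils. Cd163, a hemoglobin scavenger receptor, was detected in 12.2% and 11.4% of cells at day 1 and 3.74% and 5.37% at day 5, and its neutrophil shares were 0.153% and 0.0662% at day 1 and 0.0971% and 0.0719% at day 5. Other resident genes differed widely in level. Of the 24 genes of the resident list, 19 and 21 at day 1 and 20 and 23 at day 5 had a UMI. Selenop, also on that list, was 1356 and 1018 CPM at day 1 and 896 and 789.5 at day 5. Stab1, a further member, was 212 and 161 CPM at day 1 and 154 and 135 at day 5. In contrast, Lyve1, Timd4 and Vsig4 were near or at 0. Lyve1, a hyaluronan receptor, was found in 1 and 1 cells at day 1 and 11 and 2 at day 5. Timd4, a phosphatidylserine receptor, had 0 and 1 UMIs and then 0 and 2, and Vsig4, a complement receptor, had none in any of the 4 libraries. Ccr2, the chemokine receptor of recruited monocytes, was detected in 90.8% and 88.6% of cells at day 1 and 87.1% and 89.3% at day 5, and its neutrophil shares were 3.9% and 2.95% at day 1 and 6.12% and 3.34% at day 5. Ccr2 together with Folr2 or Cbr2 was held by 54.1% and 51.1% of the macrophages at day 1 and 53.7% and 47.5% at day 5, against 0.337% and 0.397% and then 0.971% and 0.323% of the neutrophils. The cells are therefore called C1q-high macrophages here, after the rule that chose them.

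Monocyte transcripts were present in the C1q-high macrophages, and those of other cell types were lower. The summed monocyte list of 6 genes was 4110 and 3722 CPM at day 1 and 2431 and 2037 at day 5, with every gene detected in each library, led by Plac8 in the Angptl4+/+ day 1 library and by Ccr2 in the others. The summed T cell list was 4.85 and 3.55 CPM at day 1 and 2.66 and 1.52 at day 5, the natural killer list 0 and 0 and then 13 and 0.913, and the fibroblast list 0 and 3.55 and then 5.16 and 10.7. After the monocyte list the neutrophil list was the highest, at 719 and 592 CPM at day 1 and 265 and 321 at day 5, led by S100a9 at 286 and 251 and then 106 and 138. Of its 10 genes 9 and 8 and then 9 and 7 had a UMI, with Camp at 0 in every library and Ly6g at 0 in both Angptl4-/- libraries. The monocyte and neutrophil lists were both higher at day 1 in both genotypes, and their part in the day differences below was not tested. The endothelial list summed to 52.4 and 76.9 and then 25.6 and 40.8 CPM, led by Pecam1, which leukocytes also express. The B cell list lay between 2.37 and 17.5 CPM, the dendritic cell list between 0.970 and 13.7, the keratinocyte list between 0.970 and 3.35, the erythroid list between 0 and 8.91 and the mast cell list between 0 and 1.52.

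**Figure D2:**
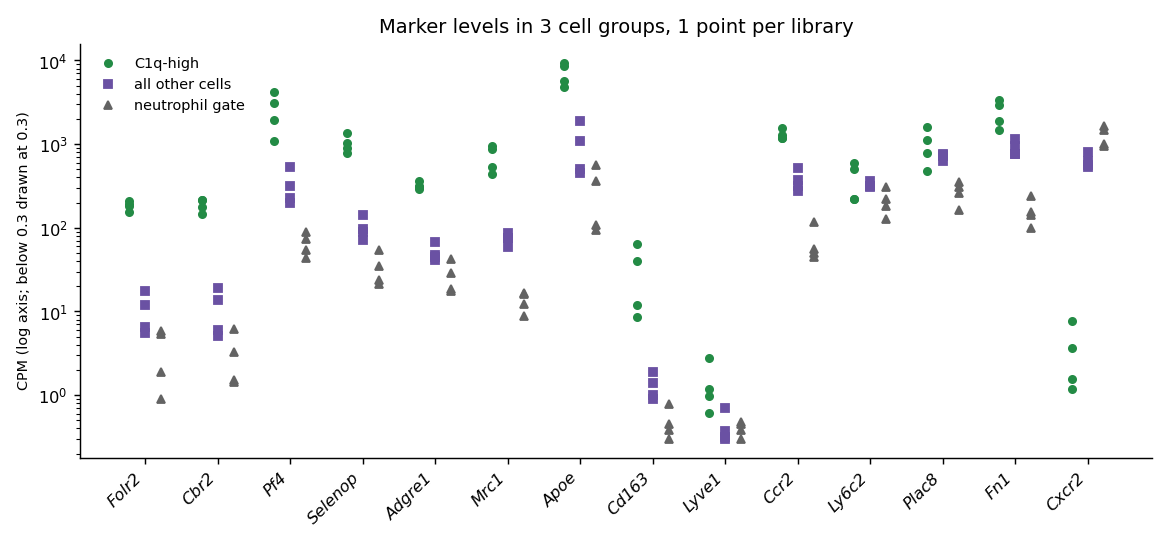
Counts per 1000000 UMIs (CPM, log axis, values under 0.3 drawn at 0.3) of 14 genes in C1q-high macrophages, all other passing cells and cells of the neutrophil gate, with 1 point per library. Folr2 and Cbr2 are higher in the C1q-high cells than in the other cells of every library, and so is Ccr2.

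The share of leukocytes that were C1q-high macrophages differed between genotypes by less than counting error at day 1 and was higher at day 5, more so in Angptl4+/+ wounds. At day 1 the macrophages were 1.83% of cells (1.49% to 2.23%) in the Angptl4+/+ library and 1.83% (1.47% to 2.25%) in the Angptl4-/- library. The interval of that difference was -0.523 to 0.533 percentage points. At day 5 they were 13.5% (12.6% to 14.5%) and 5.11% (4.5% to 5.77%), a difference of -8.42 points (-9.57 to -7.28) that left the Angptl4-/- share at 0.378 of the Angptl4+/+ share. From day 1 to day 5 the share was 7.38-fold higher in Angptl4+/+ and 2.78-fold higher in Angptl4-/- wounds. A share also depends on the other cells of its library. Among the cells outside the neutrophil gate, they made up 4.7% (3.83% to 5.7%) and 4.95% (3.99% to 6.06%) at day 1. At day 5 they made up 23.2% (21.7% to 24.8%) and 12.4% (11% to 13.9%), an Angptl4-/- share at 0.534 of the Angptl4+/+ share, and the rise between days was 4.94-fold and 2.5-fold. Among cells with a UMI of Csf1r, the growth factor receptor of monocytes and macrophages, outside the neutrophil gate and without Hdc and Cd3e, they made up 11% (8.97% to 13.4%) and 13.2% (10.6% to 16.1%) at day 1. On that base they made up 44.4% (41.8% to 47%) and 35.2% (31.6% to 39%) at day 5, an Angptl4-/- share at 0.792 of the Angptl4+/+ share. The day 5 ratio between genotypes thus lay nearer to 1 on each narrower base, both of which were chosen after the data were seen. A loss of the cells and a larger number of other leukocytes cannot be told apart from shares.

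**Figure D3:**
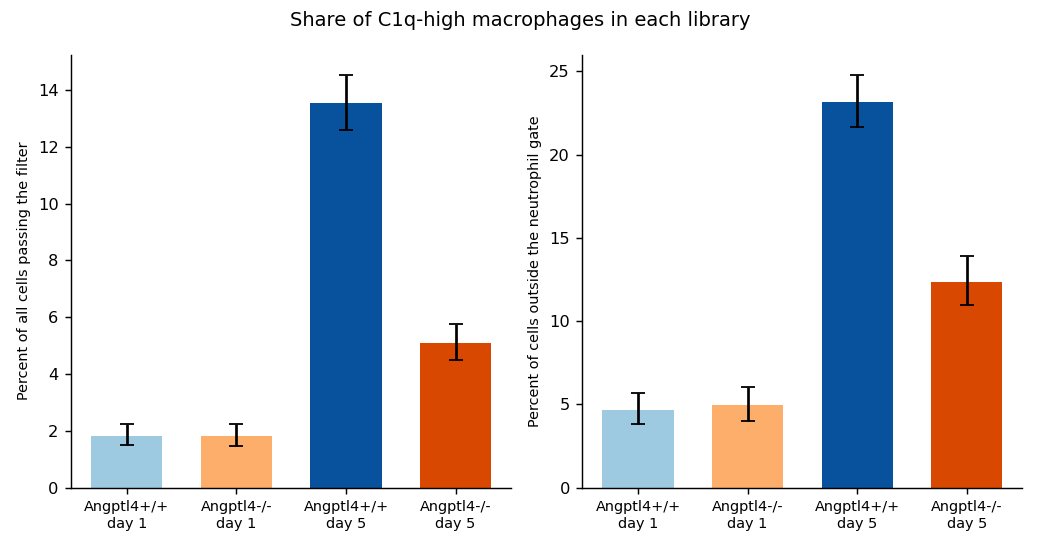
C1q-high macrophages as percent of all passing cells (left) and of passing cells outside the neutrophil gate (right), 1 bar per library with its exact 95% interval. Bars start at 0, the day 1 bars sit at 1.83% on the left, and the Angptl4+/+ day 5 bar is the highest in both panels.

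From day 1 to day 5 the C1q-high macrophages held less of the interferon-induced, chemokine and monocyte transcripts and more of the MHC class II transcripts and of some lipid-handling ones, in both genotypes. A gene was called when its level differed at least 2-fold (log2 ratio of 1) and had at least 100 UMIs in the 2 libraries. In Angptl4+/+ wounds 226 of 6788 genes (3.33%) were called higher at day 5 and 206 (3.03%) lower, and in Angptl4-/- wounds 97 of 5192 (1.87%) higher and 130 (2.5%) lower. Centred on the median gene, the Angptl4-/- counts were 115 higher and 92 lower. Fewer than 100 cells stand behind each day 1 value.

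MHC class II genes, whose products present peptides to CD4+ T cells, were mostly higher at day 5. In Angptl4+/+ wounds 7 of the 10 measured genes of the list were called higher and none lower (median log2 ratio 1.56, against 0.01 over all genes), and in Angptl4-/- wounds 6 of 10 were higher (median 1.07, against -0.07). H2-Aa, the class II alpha chain, was 560.5 and 1666 CPM at day 1 and 2892 and 4045 at day 5. H2-Eb1, a beta chain, was 355 and 1209 CPM at day 1 and 2338 and 3499 at day 5, and Cd74, the invariant chain that guards the peptide groove, 1772 and 4413 CPM at day 1 and 6413 and 9106 at day 5. All of these were lowest in the Angptl4+/+ day 1 library and highest in the Angptl4-/- day 5 library. The log2 ratio of H2-Aa between days was 2.37 (95% interval 2.25 to 2.49) in Angptl4+/+ and 1.28 (95% interval 1.2 to 1.36) in Angptl4-/- cells. Cells with an H2-Aa UMI were 32.7% and 50% at day 1 and 66.7% and 85.5% at day 5, and after each cell was thinned to 2000 UMIs 23.5% and 37.2% at day 1 and 56.2% and 77.3% at day 5. In neutrophils, which do not normally express it, the unthinned shares were 3.22% and 2.42% at day 1 and 11.4% and 8.19% at day 5. Ciita, the master activator of class II genes, differed between days by 1.75 and 1.09 on the log2 scale in the 2 genotypes.

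Interferon-induced genes were lower at day 5. Of the list, 14 of 20 measured genes were called lower in Angptl4+/+ wounds (median log2 ratio -1.29) and 11 of 19 in Angptl4-/- wounds (median -1.26), and none was higher. Rsad2, the antiviral protein viperin, was 1218 and 772 CPM at day 1 and 128 and 202 at day 5. Ifit3, which binds viral RNA complexes, was 267 and 262 CPM at day 1 and 69.7 and 114 at day 5, and the ubiquitin-like Isg15 249 and 438 CPM at day 1 and 62.3 and 162 at day 5. Both day 1 libraries were above both day 5 libraries for these 3 genes. The chemokine Cxcl10, also interferon-induced, was 492 and 752 CPM at day 1 and 95.6 and 106 at day 5, a log2 ratio between days of -2.82 (95% interval -3.02 to -2.63) in Angptl4-/- cells. Among the other genes of the Ifi200 family, DNA sensors and their relatives, 7 of 11 were called lower in Angptl4+/+ and 1 of 10 in Angptl4-/- cells. The intervals of 10 and 6 of them lay below 0 and none above, with median log2 ratios of -1.14 and -0.59. Of all genes 3.03% and 2.5% were called lower in the 2 genotypes, and the interval left out 0 for 2066 of 6788 and 1636 of 5192.

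Many chemokines and inflammatory mediators were also lower at day 5. Of the chemokine list, 9 of 15 genes were called lower in Angptl4+/+ wounds, where Ccl5 was higher. In Angptl4-/- wounds 6 of 15 were called lower and Ccl24 was higher. Ccl5 was among those called lower there, with a log2 ratio of -2.96, so it went opposite ways in the 2 genotypes. The log2 ratio of Ccl24 in Angptl4-/- wounds was 2.27, and 1.36 without the top cell of the higher library. The neutrophil attractant Cxcl2 was 4774 and 3604 CPM at day 1 and 968 and 1742 at day 5. The monocyte attractants Ccl2 and Ccl7 were 906 and 690.2 CPM at day 1 and 292 and 365 at day 5, and 1083 and 848 CPM at day 1 and 226 and 382 at day 5. Ccl8, a further monocyte attractant, was 668 and 176 CPM at day 1 and 72.7 and 83.7 at day 5, highest by far in the Angptl4+/+ day 1 library. Of the inflammatory list, 7 of 8 genes in Angptl4+/+ and 4 of 8 in Angptl4-/- wounds were lower. Il1b, a pyrogenic cytokine, was 1329 and 1312 CPM at day 1 and 588 and 786 at day 5, and Ptgs2, the inducible prostaglandin synthase, 341 and 226 CPM at day 1 and 87.3 and 112 at day 5. Ly6c2, Plac8 and Chil3, 3 of the 4 measured monocyte genes, were called lower at day 5 in each genotype. Cx3cr1, the fractalkine receptor of patrolling monocytes and many tissue macrophages, went the other way, at 52.4 and 42.6 CPM at day 1 and 211 and 145 at day 5.

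Lipid-handling genes were among those higher at day 5. Lpl, the lipoprotein lipase that releases fatty acids from triglycerides, was 342 and 262 CPM at day 1 and 1005 and 1650.3 at day 5. Its log2 ratio between days was 1.55 (95% interval 1.4 to 1.71) in Angptl4+/+ and 2.66 (95% interval 2.46 to 2.86) in Angptl4-/- cells. Pltp, the phospholipid transfer protein, was 277 and 285 CPM at day 1 and 1019 and 794 at day 5, and Lipa, the lysosomal acid lipase, 148 and 148 CPM at day 1 and 318 and 344 at day 5. Both day 5 libraries exceeded both day 1 libraries for Lpl, Pltp and Lipa. Pparg, a fatty acid-sensing nuclear receptor, was 8.73 and 4.74 CPM at day 1 and 25.9 and 35.9 at day 5, with 9 and 4 UMIs behind the day 1 values. These 4 were the called members among the 15 measured lipid genes in Angptl4+/+ wounds, where Fabp5 and Gpnmb were lower. In Angptl4-/- wounds Fabp4 was called higher as well and Gpnmb lower. Igf1, a growth factor for repair, was 9.7 and 4.74 CPM at day 1 and 66.6 and 64.9 at day 5, from 10 and 4 UMIs at day 1. The lysosomal proteases and their partners held no called gene among 15 in either genotype. Of all genes 3.33% and 3.03% were called higher and lower in Angptl4+/+ wounds, and 1.87% and 2.5% in Angptl4-/- wounds. No call among 15 genes is therefore not read as a result. In Angptl4+/+ wounds the intervals of 6 lay above 0 and 8 below, and in Angptl4-/- wounds 3 and 9. Over all genes the interval left out 0 for 2066 of 6788 and 1636 of 5192.

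The resident macrophage list held genes called in both directions. Of its 16 measured genes, Fcrls, Ltc4s and Mgl2 were called higher and Ednrb, Mrc1, Pf4 and Siglec1 lower at day 5 in Angptl4+/+ wounds. In Angptl4-/- wounds Ccl24, Ltc4s and Mgl2 were higher and Siglec1 lower. Pf4 was 4240.5 and 3122 CPM at day 1 and 1083 and 1945 at day 5. Folr2 was 208 and 155 CPM at day 1 and 190.5 and 182 at day 5, and Cbr2 214 and 215 CPM at day 1 and 175 and 147 at day 5, so that neither reached a 2-fold difference between any pair of libraries. Mgl2, a galactose-type lectin, was 0.970 and 8.29 CPM at day 1 and 40.5 and 73.4 at day 5. Only 1 Mgl2 UMI stood behind the Angptl4+/+ day 1 value, and the log2 ratio there, 5.38 (95% interval 2.89 to 10.69), was wide for that reason. Retnla, a secreted protein of alternatively activated macrophages, was 83.4 and 369 CPM at day 1 and 1090.3 and 548 at day 5. It came from few cells: 81 of the 86 Retnla UMIs at day 1 in Angptl4+/+ wounds were in 1 cell, and 8.37% and 8.68% of the macrophages held it at day 5.

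**Figure D4:**
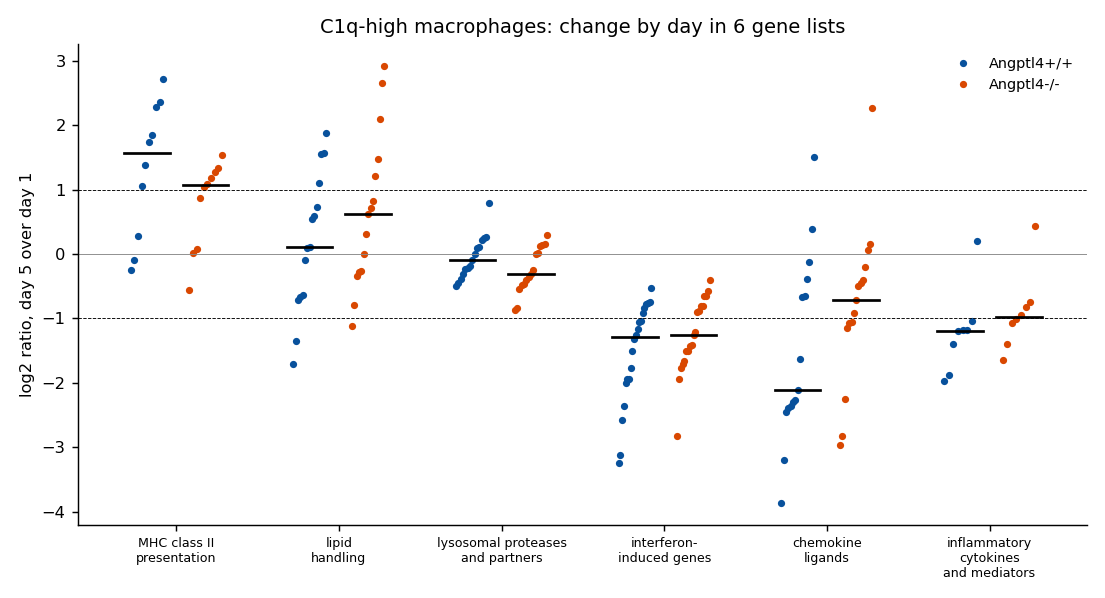
Log2 ratio of day 5 over day 1 for each measured gene of 6 lists, Angptl4+/+ and Angptl4-/- side by side, with black bars at the median and dashed lines at 2-fold. The interferon-induced medians lie at -1.29 and -1.26 and the MHC class II medians at 1.56 and 1.07.

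Between genotypes fewer genes were called. At day 1, 18 of 3068 genes (0.587%) were at least 2-fold higher in Angptl4-/- C1q-high macrophages and 24 (0.782%) lower, and at day 5, 31 of 7405 (0.419%) were higher and 60 (0.81%) lower. Among the 3067 genes measured at both days, 4 were higher at both (Ifi202b, Hebp1, Inhba and Dusp2), 5 were lower at both (Ero1l, Egln3, Lamtor3, Saa3 and Mmp13), and Cxcl3 and Ppbp were called in opposite directions.

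Ifi202b, an interferon-inducible member of the Ifi200 family, had the largest log2 ratio between genotypes at both days among the genes tested. It had 0 UMIs in the Angptl4+/+ macrophages at both days and 319.6 and 112 CPM in the Angptl4-/- macrophages, in 56.8% of cells at day 1 and 44.6% at day 5. By the lower limit of its exact interval the log2 ratio was at least 6.47 at day 1 and at least 7.6 at day 5, and with the Angptl4+/+ count set to a floor of 3 UMIs it was 6.78 and 7.90. The difference was not confined to these cells. In all other cells of the Angptl4-/- libraries Ifi202b was 56.7 and 39.6 CPM, and in neutrophils 10.6 and 13.2. In the same cells of the Angptl4+/+ libraries it was 0.252 and 0.0433, and 0.163 and 0.127 CPM. Reads of Ifi202b resemble those of its close relatives, which can make its count uncertain. None of its measured relatives was called in either direction, of 9 at day 1 and 11 at day 5. Of all genes 0.587% were called higher and 0.782% lower at day 1, and 0.419% and 0.81% at day 5. No call among these relatives is therefore not read as a result, and how reads were assigned among them was not tested. At day 1 the intervals of 8 of the 9 lay below 0, beside 581 of all 3068 genes whose interval left out 0, with a median log2 ratio of -0.54 in Angptl4-/- over Angptl4+/+ cells against 0.02 for all genes tested. At day 5 the intervals of 4 of the 11 lay above 0 and 1 below, beside 2116 of all 7405 genes whose interval left out 0, with a median of 0.13 against -0.02 for all genes.

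Hebp1, a heme-binding protein, was 12.6 and 159 CPM at day 1 and 22 and 118 at day 5. It was detected in 9.18% and 54.5% of cells at day 1 and 15.7% and 64.9% at day 5, and in neutrophils in 0% and 6.39% at day 1 and 0.340% and 7.65% at day 5. Both Angptl4-/- libraries stood above both Angptl4+/+ libraries, with log2 ratios of 3.65 (95% interval 2.83 to 4.6) at day 1 and 2.42 (95% interval 2.14 to 2.71) at day 5. All other cells together showed it too, at 1.79 and 60 CPM at day 1 and 5.71 and 46.7 at day 5. Dusp2, a phosphatase that switches off MAP kinases, was 42.7 and 93.5 CPM at day 1 and 17.3 and 41.4 at day 5. Inhba, the activin A subunit, was 25.2 and 98.3 CPM at day 1 and 1.09 and 38.1 at day 5, but 56.6% and 50.4% of its UMIs in the Angptl4-/- libraries came from 1 cell each. Without the top cell of the higher library the day 1 ratios of Inhba and Dusp2 were 0.76 and 0.66 on the log2 scale, under the 2-fold limit.

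Of the genes lower in Angptl4-/- macrophages at both days, Ero1l and Egln3 are known to be induced by hypoxia. Ero1l, an oxidase of the endoplasmic reticulum that forms disulfide bonds, was 331 and 147 CPM at day 1 and 198 and 86.8 at day 5. Its log2 ratio was -1.17 (95% interval -1.48 to -0.87) at day 1 and -1.19 (95% interval -1.38 to -1.01) at day 5. Egln3, a prolyl hydroxylase that marks hypoxia-inducible factor for breakdown, was 112 and 42.6 CPM at day 1 and 91.9 and 36.2 at day 5, and Lamtor3, a scaffold of the lysosomal Ragulator complex, 87.3 and 33.1 CPM at day 1 and 84.7 and 33.2 at day 5. For all 3 both Angptl4-/- libraries lay below both Angptl4+/+ libraries. Saa3, an acute-phase serum amyloid, was 205 and 80.5 CPM at day 1 and 137 and 13.7 at day 5, and the collagenase Mmp13 222 and 14.2 CPM at day 1 and 16.2 and 7.31 at day 5. Of the Mmp13 UMIs in the Angptl4+/+ day 1 library 55.5% were in 1 cell, and without the top cell of the higher library the ratio of Saa3 at day 1 was -0.71 and that of Mmp13 at day 5 -0.79 on the log2 scale. Trem2, a lipid-sensing receptor of macrophages, was 306 and 139 CPM at day 1 and 439 and 275 at day 5, with log2 ratios of -1.15 at day 1 and -0.68 at day 5, so that it was called at day 1 and not at day 5.

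At day 1 the MHC class II genes differed between genotypes as well. Of 8 measured, H2-Aa, H2-Ab1, H2-Eb1 and Cd74 were called higher in Angptl4-/- macrophages (median log2 ratio of the list 0.89). At day 5 none of 10 reached 2-fold (median 0.3). The intervals of 6 of the 8 lay above 0 at day 1 and those of 8 of the 10 at day 5, with none below. Over all genes the interval left out 0 for 581 of 3068 and 2116 of 7405, and 0.587% and 0.419% were called higher. The day 1 log2 ratio of H2-Eb1 was 1.77 (95% interval 1.59 to 1.94) and the day 5 ratio 0.58 (95% interval 0.55 to 0.62). In all other cells together H2-Aa was 456 and 398 CPM at day 1 and 2125 and 1684 at day 5, lower in the Angptl4-/- library at each day. Of those cells 3260 of 5248 and 3020 of 4710 at day 1 were in the neutrophil gate, and 2060 of 4276 and 2783 of 4496 at day 5. A pooled level also depends on this mix, whose part was not tested. Whether the genotype difference differed between days or between C1q-high macrophages and the other cells was not tested.

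Of the 13 chemokines measured, 4 were called lower in Angptl4-/- macrophages at day 1: Ccl3, Ccl4, Ccl8 and Cxcl3. Ccl3, which attracts monocytes and neutrophils, was 427 CPM in Angptl4+/+ and 123 in Angptl4-/- macrophages, and its neighbour Ccl4 933 and 334. The day 1 ratio of Ccl8 was -1.92 (95% interval -2.19 to -1.66) on the log2 scale, from 16.3% and 11.4% of cells. All of these were lower in the Angptl4-/- library. Cxcl3, a ligand of the neutrophil receptor Cxcr2, was 609 and 156 CPM at day 1 and 41.9 and 175 at day 5. At day 5, of 16 chemokines measured, Ccl24 and Cxcl3 were called higher and Ccl5 lower, and the median log2 ratio was 0.26 against -0.41 at day 1. The top cell of the Angptl4-/- day 5 library weighed on Ccl24. Without it the Ccl24 ratio between days in that genotype was 1.36 in place of 2.27. The ratio between genotypes without that cell is not given here. Cxcl3 was lower in the Angptl4-/- library at day 1 and higher at day 5, a reversal also seen for Ppbp, a platelet chemokine, at 529 and 144 CPM at day 1 and 14.7 and 81.9 at day 5. Single cells held 21.2% to 47.5% of the Ppbp UMIs of each library. Lyz1 and Retnla, also called higher at day 1, rested on 8 and 4 cells of the Angptl4-/- library, and the reads of Lyz1 can be mistaken for those of its paralog Lyz2.

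Among the genes lowest in Angptl4-/- macrophages at day 5 were Ltc4s and Ptgs1, both enzymes of eicosanoid synthesis. Ltc4s, the leukotriene C4 synthase, was 77.6 and 22.5 CPM at day 1 and 380.3 and 62.1 at day 5, a log2 ratio of -2.61 (95% interval -2.83 to -2.41) at day 5. Cells with an Ltc4s UMI were 19.4% and 13.6% at day 1 and 55.9% and 28.1% at day 5, and after thinning to 2000 UMIs 9.18% and 3.49% at day 1 and 38.4% and 10.3% at day 5, against unthinned shares of 0.276% and 0.397% at day 1 and 1.99% and 0.611% at day 5 in neutrophils. The Angptl4+/+ day 5 library was the highest of the 4 for this gene, in all other cells together also (60.8 against 14.5 CPM). Ptgs1, the constitutive prostaglandin synthase, was 35 in Angptl4+/+ and 6.39 CPM in Angptl4-/- macrophages at day 5. Mt2, a metallothionein that binds zinc and copper, was 131 and 22.2, Selenbp1, a selenium-binding oxidase, 74.4 and 18, and F11r, the junctional adhesion molecule A, 135 and 47.2. Among the genes higher at day 5, Ramp3, a receptor activity-modifying protein, was 6.72 and 33.2 CPM, and Pgf, placental growth factor, 5.62 and 25, with 73.2% of the Angptl4-/- Pgf UMIs in 1 cell. Without that cell the log2 ratio of Pgf was 0.25.

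**Figure D5:**
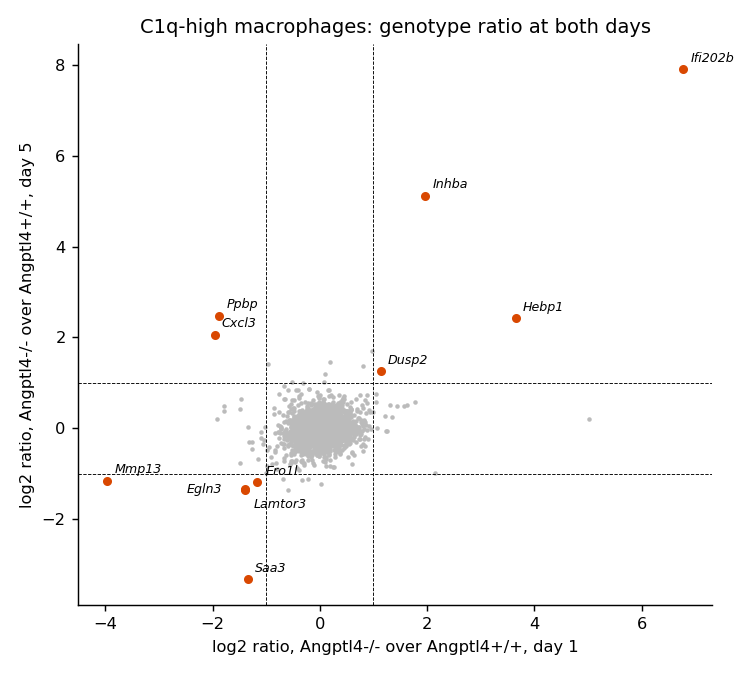
Log2 ratio of Angptl4-/- over Angptl4+/+ C1q-high macrophages at day 1 (horizontal) and day 5 (vertical) for 3067 genes, with the 11 genes called at both days named and dashed lines at 2-fold. Ifi202b, drawn with its 0 counts set to 3 UMIs, and Hebp1 lie far out in the upper right, Ero1l, Egln3 and Lamtor3 in the lower left, and Cxcl3 and Ppbp in the upper left.

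The C1q-high macrophages varied among themselves along Folr2 and Cbr2, whose counts were used to divide them and are no finding. Cells with 5 or more Folr2 plus Cbr2 UMIs were 28.6% and 22.7% of the macrophages at day 1 and 25.3% and 31% at day 5. They were set against cells with none, over the 4297 genes with at least 20 UMIs in the 2 groups of cells together in each library. Of these genes 24 (0.559%) were at least 2-fold higher in every library and 36 (0.838%) at least 2-fold lower. Selenop, a selenium carrier, had log2 ratios of 3.22 and 2.88 at day 1 and 1.57 and 1.98 at day 5, and Timp2, an inhibitor of metalloproteinases, of 2.49 and 2.2 at day 1 and 1.74 and 1.87 at day 5. Fcgrt, the neonatal Fc receptor chain that recycles IgG, had ratios of 4.05 and 2.74 at day 1 and 2.73 and 1.77 at day 5. Ccl8 was 1904 and 455 CPM at day 1 and 159 and 145 at day 5 in the Folr2 Cbr2 cells, and 2.27 and 5.15 at day 1 and 4.04 and 5.62 at day 5 in the cells with none. Lower in them was Mmp12, the macrophage elastase, at 0 and 4.46 CPM at day 1 and 2.97 and 0 at day 5 against 465 and 214 at day 1 and 94.5 and 93.4 at day 5 in the cells with none. Ptgs2 was also lower, with log2 ratios of -2.68 and -2.45 at day 1 and -1.98 and -2.14 at day 5. Il1b was 589 and 370.4 CPM at day 1 and 331 and 328 at day 5 in the cells with 5 or more and 1613 and 2308 CPM at day 1 and 896 and 1273 at day 5 in those with none, lower in the former in each library. Ccr2, by contrast, was at 1141 and 1780.5 CPM at day 1 and 1259 and 961 at day 5 in the cells with 5 or more and 1202 and 1233 CPM at day 1 and 1349 and 1337 at day 5 in those with none, and went both ways. The class II gene H2-Aa was 420.3 and 1749 CPM at day 1 and 1334 and 1895 at day 5 in the cells with 5 or more and 737 and 1639 CPM at day 1 and 4634 and 5559.9 at day 5 in those with none. It was lower in the former in 3 libraries, and slightly higher in the Angptl4-/- library at day 1, where the intervals of the 2 levels overlapped. The median C1q count was 72 and 54 at day 1 and 74 and 102 at day 5 in these cells and 24.5 and 24 and then 34.5 and 33 in those with none, and deeper cells have more UMIs of any gene, whose part was not tested.

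Along the C1q count itself, Fn1 ran opposite to Apoe and Adgre1. Fn1, fibronectin, was 2155 and 2226 CPM at day 1 and 4673 and 6145 at day 5 in cells with 10 to 19 C1q UMIs and 644 and 1130.2 CPM at day 1 and 2100.4 and 1559.9 at day 5 in those with 100 or more. It was lower in the C1q-richest cells of every library. Apoe, the carrier of cholesterol out of macrophages, was 4409 and 2709 CPM at day 1 and 5687 and 4744 at day 5 in the cells with 10 to 19 C1q UMIs and 8252 and 7150.1 CPM at day 1 and 14191 and 10882 at day 5 in those with 100 or more. Adgre1, the F4/80 antigen of mature macrophages, was 272 and 230.4 CPM at day 1 and 205 and 109 at day 5 in the former and 529 and 501 CPM at day 1 and 462 and 415 at day 5 in the latter. These bins differ in the counts that chose the cells, so the values are a description with no test. Smaller groups lay within the population. Cells with Il7r, the interleukin-7 receptor, were 34.7% and 39.8% at day 1 and 13.8% and 26.9% at day 5. After thinning to 2000 UMIs the Il7r shares were 23.5% and 27.9% at day 1 and 5.36% and 9.5% at day 5, and neutrophils held Il7r in 2.36% and 1.62% at day 1 and 1.89% and 1.15% at day 5 unthinned. Cells with Cx3cr1 and Adgre1 but no Ly6c2 were 5.1% and 5.68% at day 1 and 23.5% and 17.4% at day 5, against 0.153% and 0.0331% and then 0.777% and 0.323% of the neutrophils.

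Beside all other passing cells of their libraries, which include the neutrophils, the C1q-high macrophages were rich in transcripts of mature macrophages. The 2 groups were divided by their C1q counts, so these values describe the gate and are not tests. The other cells had median depths of 4948 and 4780 UMIs at day 1 and 3640.5 and 3659.5 at day 5. Selenop was 1356 and 1018 CPM at day 1 and 896 and 789.5 at day 5 in the C1q-high macrophages and 89 and 71.8 CPM at day 1 and 142 and 97.7 at day 5 in the other cells. Adgre1 was 295 and 315 CPM at day 1 and 362 and 304 at day 5 against 40.9 and 44.4 CPM at day 1 and 67.4 and 47.1 at day 5, and Maf, a transcription factor of mature macrophages, 848 and 965 CPM at day 1 and 706 and 701 at day 5 against 131 and 117 CPM at day 1 and 169.9 and 105 at day 5. All 3 were higher in the C1q-high macrophages in each of the 4 libraries. The lysosomal protease Ctsb was 4152 and 4145 CPM at day 1 and 3530.2 and 3002 at day 5 in the C1q-high macrophages and 1126 and 1071 CPM at day 1 and 1046 and 756 at day 5 in the other cells. Nos2, the inducible nitric oxide synthase, went the other way in each library, at 30.1 and 15.4 CPM at day 1 and 4.69 and 2.44 at day 5 against 109 and 80 CPM at day 1 and 28 and 31 at day 5. Timp2 had no common direction, at 314 and 329 CPM at day 1 and 426 and 417 at day 5 in the C1q-high macrophages and 319 and 386 CPM at day 1 and 179 and 207 at day 5 in the other cells. A narrower set, chosen after the data were seen, was the other cells with a UMI of Csf1r, outside the neutrophil gate and without Hdc and Cd3e, which numbered 734 and 521 at day 1 and 798 and 429 at day 5. Beside these the differences in Ctsb and Maf were smaller, since the Csf1r cells held Ctsb at 2016 and 1961 CPM at day 1 and 1659 and 1234 at day 5, and Maf at 349.9 and 337 and then 334 and 234. The log2 ratio of C1q-high over Csf1r cells was 1.04 and 1.08 and then 1.09 and 1.28 for Ctsb, and 1.28 and 1.52 and then 1.08 and 1.58 for Maf. The differences in Selenop and Adgre1 were smaller as well. Their log2 ratios were 2.5 and 2.25 and then 1.7 and 1.63 for Selenop, and 1.59 and 1.47 and then 1.54 and 1.66 for Adgre1. Nos2 was again lower in the C1q-high macrophages of each library, with log2 ratios of -2.29 and -2.65 and then -2.91 and -3.36. Timp2 was higher than in the Csf1r cells in each library, with log2 ratios of 2.25 and 2.25 and then 1.78 and 1.86. Of the 15 genes of the lysosomal list, 2, 2, 2 and 5 were at least 2-fold higher in the C1q-high macrophages, with Ctsb and Lgmn among them in each library, and the others were within 2-fold. The share of all genes past 2-fold in this comparison is not given here. These counts therefore have no background to be read against and are no result about the list. These values do not show that Selenop, Adgre1, Ctsb, Maf or lysosomal genes are particular to the C1q-high cells among wound macrophages.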

How the data were processed

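The deposited files hold whole-number UMI counts per gene and barcode for 31053 genes. The authors made them from 10x Chromium 3' libraries with Cell Ranger 3.1.0 on mm10, per the submitters' processing notes, which also name Seurat 3.0. Barcodes with fewer than 200 genes or more than 10% mitochondrial UMIs were left out (20069 to 19827). Counts of the chosen cells were summed per library and scaled to counts per 1000000 UMIs (CPM). Shares have Clopper-Pearson intervals, share differences Newcombe intervals, levels exact Poisson intervals and log2 ratios exact conditional binomial intervals. C1qa, C1qb, C1qc, Hdc and Cd3e were left out of the calls. Genes with 0 UMIs in a library were set to 3. Thinning left out cells under 2000 UMIs (0, 2, 16 and 0 of the chosen cells, in the order Angptl4+/+ and Angptl4-/- at day 1, then at day 5).

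Named genes were those of the lists, the 8 of each contrast and direction whose interval bound lay farthest from 0, those called alike between genotypes at both days, and Angptl4, Ifi202b and Hebp1. Cxcl3 and Ppbp, Trem2, the genes of the Folr2 Cbr2 division and those set beside all other cells were also chosen after their values were seen. The cells, lists and tests were chosen with earlier results of these data known, and the neutrophil gate (at least 1 Cxcr2 and 20 S100a8 plus S100a9 UMIs) and the Folr2 Cbr2 division after the counts were seen. The planned comparison with 2 other macrophage and monocyte gates is not reported here. Ratios were checked on simulated data. Python 3.11.15, numpy 2.4.6, scipy 1.17.1, pandas 2.3.3, scanpy 1.11.5 and matplotlib 3.10.9 were used.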

Additional observations from a re-analysis of the deposited data

Results flagged for a closer look

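Cxcl3 and Ppbp went opposite ways between genotypes at the 2 days in the C1q-high macrophages. The log2 ratio of Cxcl3 in Angptl4-/- over Angptl4+/+ cells was -1.96 at day 1 and 2.06 at day 5. That of Ppbp was -1.87 at day 1 and 2.48 at day 5. With 1 library per condition the difference between days was not tested.

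Cells that met the C1q limit but held Hdc or Cd3e were outside the comparisons. They numbered 24 and 26 at day 1 and 84 and 50 at day 5 in the Angptl4+/+ and Angptl4-/- libraries, nearly all of them left out for Hdc (182 of 184). S100a8 and S100a9 summed to at least 10 UMIs in 41.7% and 38.5% of them at day 1 and 32.1% and 38% at day 5, against 7.14% and 1.14% and then 0.598% and 1.24% of the C1q-high macrophages. Folr2 was detected in 29.2% and 50% of them at day 1 and 40.5% and 46% at day 5. A further 9 barcodes with at least 10 C1q UMIs failed the filters on genes or mitochondrial UMIs.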

How the results depend on the processing

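The day 5 difference in share between genotypes and both differences between days kept their direction, while the day 1 difference between genotypes (0.000951 points) took either sign, from -0.105 with Folr2 or Cbr2 required to 2.14 as percent of Csf1r cells. The day 5 difference in share between genotypes (-8.42 points) was -6.49 with at least 20 C1q UMIs, -9.57 with the C1q limit set per cell depth in place of raw UMIs, -5.57 with Folr2 or Cbr2 also required and -10.8 as percent of cells outside the neutrophil gate. The rise between days in Angptl4+/+ wounds (11.7 points) was 12.8 at a limit of 5 C1q UMIs, 9.53 at 20, 10.7 at 5% mitochondrial UMIs, 12.9 without the Hdc and Cd3e condition and 7.23 with Folr2 or Cbr2, which gave 1.76 in Angptl4-/- wounds (3.27). Outside the neutrophil gate these rises were 18.5 and 7.43 points, and among Csf1r cells 33.40 and 22. With at least 20 UMIs per gene the genes called higher and lower were 182 and 160 between genotypes at day 1, 150 and 308 at day 5, and 774 and 371 (Angptl4+/+) and 462 and 337 (Angptl4-/-) between days. The mean of the cells' own CPM gave 30 genes higher and 25 lower in Angptl4-/- cells at day 1, against 18 and 24, and 49 higher at day 5. Requiring Folr2 or Cbr2 gave 37 lower at day 1, and 78 lower between days in Angptl4-/- wounds. Without the top cell of the higher library, 11 (day 1) and 20 (day 5) genes were higher in Angptl4-/- cells, and 81 were higher and 72 lower between days in Angptl4-/- wounds. Centring on the median gene gave 115 higher and 92 lower between days in Angptl4-/- wounds, against 97 and 130. So the balance of higher and lower genes turned at day 1 with 20 UMIs per gene and with the mean over cells, and between days in Angptl4-/- wounds with 20 UMIs, with centring and without the top cell. More genes were measured at 20 UMIs, and stricter gates held fewer cells. The cause of these shifts was not tested. At day 1 the ratios of Ccl4 and Mmp12 were -0.94 and -0.83 and Dusp2 0.84 by the mean over cells, AY036118 0.64 with Folr2 or Cbr2, and Saa3 -0.86 with 20 C1q UMIs and -0.95 with Folr2 or Cbr2. The planned removal of predicted doublets was not run, because the caller marked 0, 2, 4 and 0 cells in the libraries, and removing the 5% of cells of highest doublet score took its place. That removal, the Folr2 or Cbr2 condition, the 2 narrower bases, the other Csf1r cells and the top-cell setting were chosen after seeing the data. Leaving out a replicate would leave a condition with no library. A fit of genotype and day together over the 4 libraries, with day as a block, was not run.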
